A study of Mus musculus with 10 samples.

Results

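The 10 genes described here drive or restrain the G1 phase of the cell cycle. They are the D-type cyclin genes Ccnd1, Ccnd2 and Ccnd3, the E-type cyclin genes Ccne1 and Ccne2, the kinase genes Cdk4 and Cdk6, and the inhibitor genes Cdkn1a, Cdkn1b and Cdkn2c. They were taken by name from the 57825 genes of an RNA sequencing table, each name was listed once, and all 10 passed the filter on low values that left 15710 genes to test. The table covers mouse CD8+ T cells in 2 groups of 5 samples. In both groups T cells from the spleens of female Balb/c mice were activated with plate-bound anti-CD3, anti-CD28 and IL-2 for 12 h, held for a further 24 h and then co-cultured for 48 h with 4T1 cells, a mouse mammary carcinoma line. The group CD8+4T1+NaAc received 5 mM sodium acetate (NaAc) and the group CD8+4T1 received none. The methods place the acetate treatment in the 24 h before co-culture and do not say whether acetate was kept on during co-culture. The labels give day 3 for both groups. RNA came from purified CD8+ T cells, and no sample of T cells without tumor cells was used here. Neither the labels nor the methods say whether the 5 samples of a group came from separate mice or cultures, so p-values measure the spread between these samples, which may be technical.

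D-type cyclins are induced by growth factor and antigen receptor signals, bind Cdk4 or Cdk6, and start the phosphorylation of the retinoblastoma protein. That step frees E2F factors to transcribe the genes of S phase entry, cyclin E among them, and cyclin E with Cdk2 completes it. The inhibitors act at both steps: p18 (Cdkn2c) binds Cdk4 and Cdk6 directly, while p21 (Cdkn1a) and p27 (Cdkn1b) bind cyclin-kinase complexes, and p21 is a classic target of the tumor suppressor p53. In T lymphocytes Ccnd2, Ccnd3 and Cdk6 are the usual partners of early G1, and Ccnd1 is little used by lymphocytes and strongly expressed by many epithelial tumor cells.

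Values are FPKM, the fragments of a gene per kilobase of its length relative to all fragments of the sample. Differences are log2 fold changes of FPKM + 0.1, CD8+4T1+NaAc over CD8+4T1, with limma standard errors (SE) and p-values adjusted over all 15710 genes by the Benjamini-Hochberg method, and a gene is called at an adjusted p under 0.05. Of the 10 genes, 6 were called: Ccnd1, Ccne1 and Cdkn2c rose with NaAc, and Ccnd2, Cdk6 and Cdkn1a fell. Among all genes tested 36.5% were called, 17.6% higher and 19.0% lower, so a count of 6 has to be read against a background in which a large part of the table moved. The 3 rises and 3 falls compare with 2764 and 2978 genes. Only Ccnd1 was called with an absolute log2 fold change over 1, as were 6.47% of all genes. For 5 of the 10 genes, all the called ones but Ccnd2, the values of the groups did not overlap, compared with 26.4% of all genes. An exact two-sided permutation test gave p = 0.00794 for each of these 5, the smallest that 5 samples against 5 can give. That unadjusted p follows from the lack of overlap and adds no further support. The median log2 fold change was -0.05 over the 10 genes and -0.02 over all genes tested.

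Samples differed in ways that bear on every comparison. The fragments behind the FPKM numbered 16306447 to 18853726 per sample, but the listed genes hold 95.5% to 97.9% of them in CD8+4T1 and 89.8% to 92.1% in CD8+4T1+NaAc. The summed FPKM of the CD8+4T1+NaAc samples averaged 88.4% of those of CD8+4T1. Rescaling every sample to the same total moves the median of all genes to 0.16, and scaling to 12 CD8+ T cell marker genes moves it to 0.17, while a median-ratio scaling leaves it at -0.03 and all calls among the members as they were. The words both rescalings refer to the first 2 of these. With the first, 31.2% of genes were called higher and 8.80% lower, and with the second 30.7% and 7.41%. Under the rescaling to the same total 5 of the 10 genes were called higher and 2 lower, and under the T cell marker scaling 4 and 2. The direction and call of Ccnd1, Ccne1, Cdk6, Cdkn1a and Cdkn2c held under both. CD8+4T1+NaAc replicate 1 stood apart: it had 20233 genes above 0, against 24681 to 25088 in the rest of its group, and it lay near the CD8+4T1 samples for several members.

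**Figure D1:**
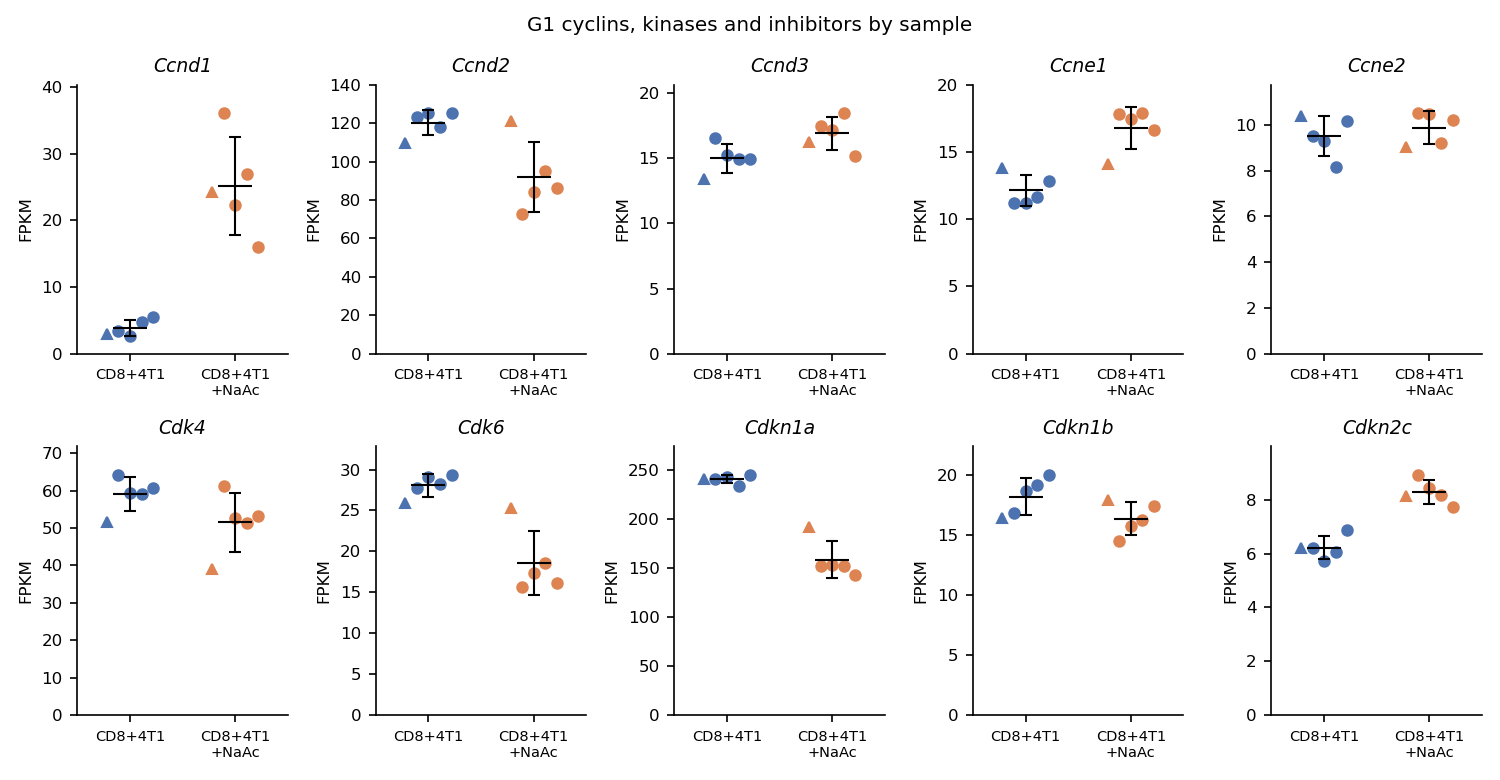
FPKM of the 10 genes in each sample (points, in replicate order; triangles mark replicate 1) with the group mean and SD (bars, n = 5). Ccnd1, Ccne1 and Cdkn2c lie higher and Cdk6 and Cdkn1a lower in all 5 CD8+4T1+NaAc samples, and for Ccnd2 and Cdk6 replicate 1 of CD8+4T1+NaAc sits beside the CD8+4T1 samples.

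Ordered by mean FPKM, which is per gene length, CD8+4T1 samples had Cdkn1a (240.6) first, then Ccnd2 (120.4), Cdk4 (59.0), Cdk6 (28.1), Cdkn1b (18.2), Ccnd3 (15.03), Ccne1 (12.1), Ccne2 (9.51), Cdkn2c (6.21) and Ccnd1 (3.86). The ranges over samples of Cdkn1b and Ccnd3 overlapped, as did those of Ccnd3 and Ccne1, while the other neighbours in this order were separate. In CD8+4T1+NaAc the top of the order was the same, with Cdkn1a at 158.5, Ccnd2 at 92.0 and Cdk4 at 51.6, but Ccnd1 took the fourth place at 25.1, its range overlapping that of Cdk6 (18.6). Cdk6, Ccnd3 (16.9), Ccne1 (16.8) and Cdkn1b (16.4) also had overlapping ranges, and Ccne2 (9.89) and Cdkn2c (8.28) came last.

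The promoters of Cdkn1a, Ccne1 and Cdkn2c in the RefSeq table of mouse build GRCm38.p6 are shown because they belong to called members and hold sequence patterns tied to the regulators of this pathway. Windows run from 250 bases before to 50 bases after an annotated start, 7 of the 10 members matched the table, and the build differs from the positions listed for the expression values. In the Cdkn1a window at chr17:29090729-29091028 (+ strand), around the upstream of the 2 listed starts, capitals mark a p53 response element pattern, a pair of 10-letter half-sites end to end with at most 1 letter off and none in their cores, beginning 51 bases before the start. In the windows of Ccne1 (chr7:38107441-38107740, - strand) and Cdkn2c (chr4:109666707-109667006, - strand, the upstream of 2 listed starts) capitals mark GC boxes (GGGCGG or CCGCCC) and, in Cdkn2c alone, an E2F core (TTCCCGC, 25 bases before the start).
Cdkn1a: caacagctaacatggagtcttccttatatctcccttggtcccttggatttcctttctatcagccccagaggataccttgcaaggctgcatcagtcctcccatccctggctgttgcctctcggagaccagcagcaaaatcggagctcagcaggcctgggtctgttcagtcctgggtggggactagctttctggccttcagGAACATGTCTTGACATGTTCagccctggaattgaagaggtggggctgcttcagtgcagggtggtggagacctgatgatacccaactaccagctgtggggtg
Ccne1: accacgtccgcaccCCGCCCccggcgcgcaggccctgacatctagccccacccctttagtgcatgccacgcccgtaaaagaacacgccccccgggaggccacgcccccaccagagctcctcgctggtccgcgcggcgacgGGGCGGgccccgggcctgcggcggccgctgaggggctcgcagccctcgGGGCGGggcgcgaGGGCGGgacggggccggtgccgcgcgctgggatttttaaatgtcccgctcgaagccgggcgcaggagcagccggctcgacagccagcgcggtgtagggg
Cdkn2c: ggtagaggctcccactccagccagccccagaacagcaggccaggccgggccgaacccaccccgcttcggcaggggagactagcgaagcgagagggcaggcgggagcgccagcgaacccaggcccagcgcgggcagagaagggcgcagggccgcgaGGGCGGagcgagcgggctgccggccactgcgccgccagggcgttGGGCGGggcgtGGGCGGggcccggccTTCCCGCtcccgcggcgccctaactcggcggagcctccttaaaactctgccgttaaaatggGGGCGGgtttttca

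Of the 32851 windows of the same length in that table, 0.0548% (18 windows) hold the p53 pattern on either strand. The E2F core, searched on both strands as TTCCCGC with any mix of C and G as the third and the fourth letter, was in 9.57% of windows, and the GC box in 35.7%. In the Cdkn2c window the E2F core and the GC boxes share no letters. The p53 pattern was searched after the sequence had been seen. Among the members 1 of 7 had the E2F core, 6 of 7 had a GC box and 1 of 7 the p53 pattern. Ccne1 and Cdkn2c each had 4 GC boxes in the window shown. These matches describe letters and not bound sites.

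Ccnd1 (ENSMUSG00000070348, listed on chromosome 7 from 144483668 to 144493662, minus strand) encodes cyclin D1. It had 2.999, 3.32, 2.70, 4.73 and 5.56 FPKM in the 5 CD8+4T1 samples and 24.3, 36.1, 22.3, 26.95 and 16.05 FPKM in the 5 CD8+4T1+NaAc samples. The lowest CD8+4T1+NaAc sample, replicate 5, was above the highest CD8+4T1 sample, also replicate 5, and the value rested on 207 to 3206 fragments per sample. LTO1, on the opposite strand over 17.7% of the Ccnd1 locus, had a mean of 2.80 FPKM over all samples and was not called (-0.06, adjusted p = 0.584), and the strand setting of the counting is not known here. The means of 3.86 ± 1.23 and 25.1 ± 7.34 FPKM (SD, n = 5) differ 6.51-fold, a log2 fold change of 2.68 (SE 0.24, adjusted p = 3.48e-05), the widest difference among the members. It was between 2.42 and 2.86 in the 12 alternatives that kept all samples and between 2.53 and 2.82 with any sample left out, and called in each.

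Genes of epithelial and 4T1 cells moved in the same samples. Of 15 such markers 7 were tested, 5 of them rose (71.4%) and none fell, where 17.6% and 19.0% of all genes did. Of the 5, Krt7 and Cldn3 passed the filter only through CD8+4T1+NaAc. Their means in CD8+4T1 and CD8+4T1+NaAc were 0.143 and 1.79 FPKM and 0.380 and 2.66 FPKM. Without the filter all 15 were tested, 8 rose and none fell, where 2884 and 2603 of 32272 genes did. With the filter, the median log2 fold change of the 7 tested markers was 2.89. The tested markers that were not called were Epcam and Cldn7. Epcam had means of 0.519 and 0.699 FPKM in CD8+4T1 and CD8+4T1+NaAc (adjusted p = 0.305), and Cldn7 0.649 and 0.637 FPKM (adjusted p = 0.994). The summed FPKM of all 15 was 8.81 to 18.3 (median 11.1) in CD8+4T1 and 65.5 to 174.4 (median 102.1) in CD8+4T1+NaAc. Krt8, a keratin of simple epithelia, rose from 3.42 ± 1.69 to 34.2 ± 13.1 FPKM, and Lcn2, a lipocalin secreted by epithelial and tumor cells, from 3.99 ± 1.47 to 40.2 ± 16.4 FPKM (SD, n = 5), while Krt5, Krt19, Cldn4 and Esrp1 stayed at or near 0 in both groups. Within CD8+4T1+NaAc, Ccnd1 and the marker sum were both highest in replicate 2 and both lowest in replicate 5, and within CD8+4T1 both were highest in replicate 5, while the lowest Ccnd1 was in replicate 3 and the lowest marker sum in replicate 1. Ccnd1 divided by the marker sum was 0.262 to 0.340 in CD8+4T1 and 0.207 to 0.326 in CD8+4T1+NaAc, with medians of 0.301 and 0.218. These ranges overlap only through replicate 1 of CD8+4T1+NaAc, since the 4 other samples of that group, at most 0.245, are below every CD8+4T1 sample. The part of the marker difference in the Ccnd1 result was not tested, and in RNA from a bulk sample the number of cells of a type and the RNA per cell cannot be told apart.

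**Figure D2:**
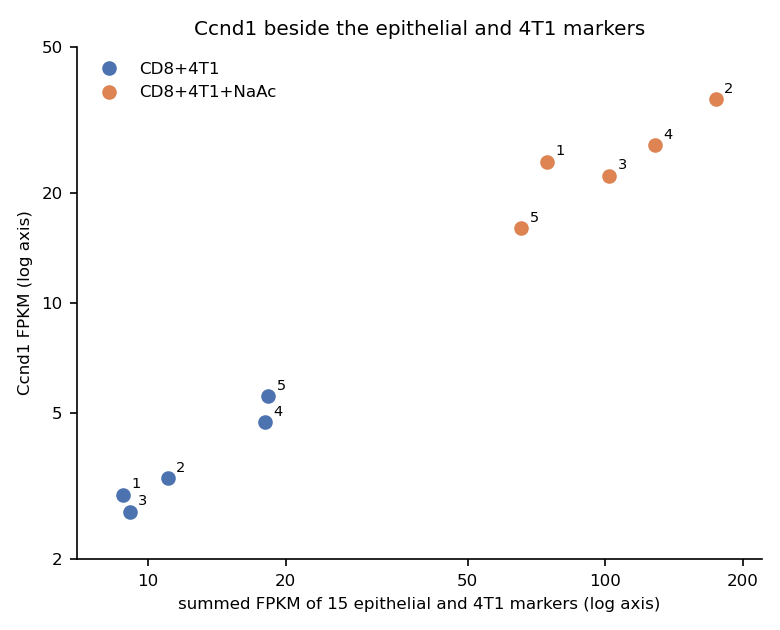
Ccnd1 FPKM against the summed FPKM of 15 epithelial and 4T1 markers, 1 point per sample with its replicate number, both axes logarithmic. The 5 CD8+4T1+NaAc samples lie at higher values on both axes, at 65.5 to 174.4 FPKM of markers and 16.05 to 36.1 FPKM of Ccnd1.

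Of 10626 protein-coding genes averaging 1 FPKM or more, the 3 whose log2 values over the 10 samples were most like those of Ccnd1 were Col16a1 (Pearson r = 0.998), Lamb1 (0.998) and Col4a2 (0.998). These r values describe 10 samples that fall into 2 separate groups. Col16a1, a collagen chain, had 0.517 ± 0.261 and 5.67 ± 1.91 FPKM (SD, n = 5) in CD8+4T1 and CD8+4T1+NaAc. Lamb1, a laminin chain, had 1.49 ± 0.588 and 14.7 ± 4.23 FPKM, and Col4a2, a basement membrane collagen chain, had 1.28 ± 0.532 and 16.4 ± 5.30 FPKM.

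Ccnd2 (ENSMUSG00000000184, chromosome 6, 127102125 to 127129156) encodes cyclin D2 and was the most abundant cyclin gene of the 5 in both groups. Its values were 109.9, 123.5, 125.2, 118.1 and 125.3 FPKM in CD8+4T1 and 121.3, 73.0, 84.4, 94.96 and 86.5 FPKM in CD8+4T1+NaAc. The groups overlap only through replicate 1 of CD8+4T1+NaAc, since the next highest of that group, 94.96, is below every CD8+4T1 sample. The means were 120.4 ± 6.56 and 92.0 ± 18.1 FPKM (SD, n = 5), and the log2 fold change was -0.41 (SE 0.11, adjusted p = 0.0174), and -0.51 (adjusted p = 0.00038) without that replicate. The call was lost when samples were rescaled to the same total (-0.23, adjusted p = 0.154) or to T cell markers (-0.22, adjusted p = 0.209).

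Ccnd3 (ENSMUSG00000034165, chromosome 17, 47815976 to 47910616) encodes cyclin D3, which is required for the expansion of early thymocytes. It had 13.4, 16.6, 15.3, 14.9 and 14.97 FPKM in CD8+4T1 and 16.3, 17.5, 17.2, 18.5 and 15.2 FPKM in CD8+4T1+NaAc, ranges that overlap. The log2 fold change was 0.17 (SE 0.07, adjusted p = 0.0715) and did not pass the test. It passed without CD8+4T1 replicate 2 (0.21, adjusted p = 0.0419), without CD8+4T1+NaAc replicate 5 (0.21, adjusted p = 0.0354) and under both rescalings (0.35, adjusted p = 0.00154, and 0.36, adjusted p = 0.00362). It also passed with sample weights (0.17, adjusted p = 0.0280) and with voom on the fragments behind the FPKM (0.26, adjusted p = 0.00462). Bysl, a gene on the opposite strand that overlaps 361 bases of the Ccnd3 locus, was expressed at a similar mean of 13.1 FPKM over all samples, and the strand setting of the counting is not given in the sources used here.

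The make-up of the D-type cyclins within a sample does not depend on the scaling between samples. The shares of a class add up to a whole, so a higher Ccnd1 share by itself lowers the Ccnd2 share. Ccnd1 made up 1.88% to 3.81% of the summed D-type cyclin FPKM in CD8+4T1 and 13.6% to 28.5% in CD8+4T1+NaAc, Ccnd2 85.7% to 87.5% and 57.7% to 74.9%. Neither pair of ranges overlapped, and the share of Ccnd3 was 10.3% to 11.6% in CD8+4T1, 10.05% in replicate 1 of CD8+4T1+NaAc and 12.9% to 13.9% in the 4 other samples of that group. The ratio of Ccnd2 to Ccnd3, both expressed by T cells, was 7.45 to 8.37 in CD8+4T1 and 4.18 to 7.46 in CD8+4T1+NaAc. These ranges overlapped narrowly, and the medians were 8.18 and 5.14. The summed D-type cyclin FPKM itself overlapped between the groups, at 126.3 to 145.8 and 117.8 to 161.9.

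**Figure D3:**
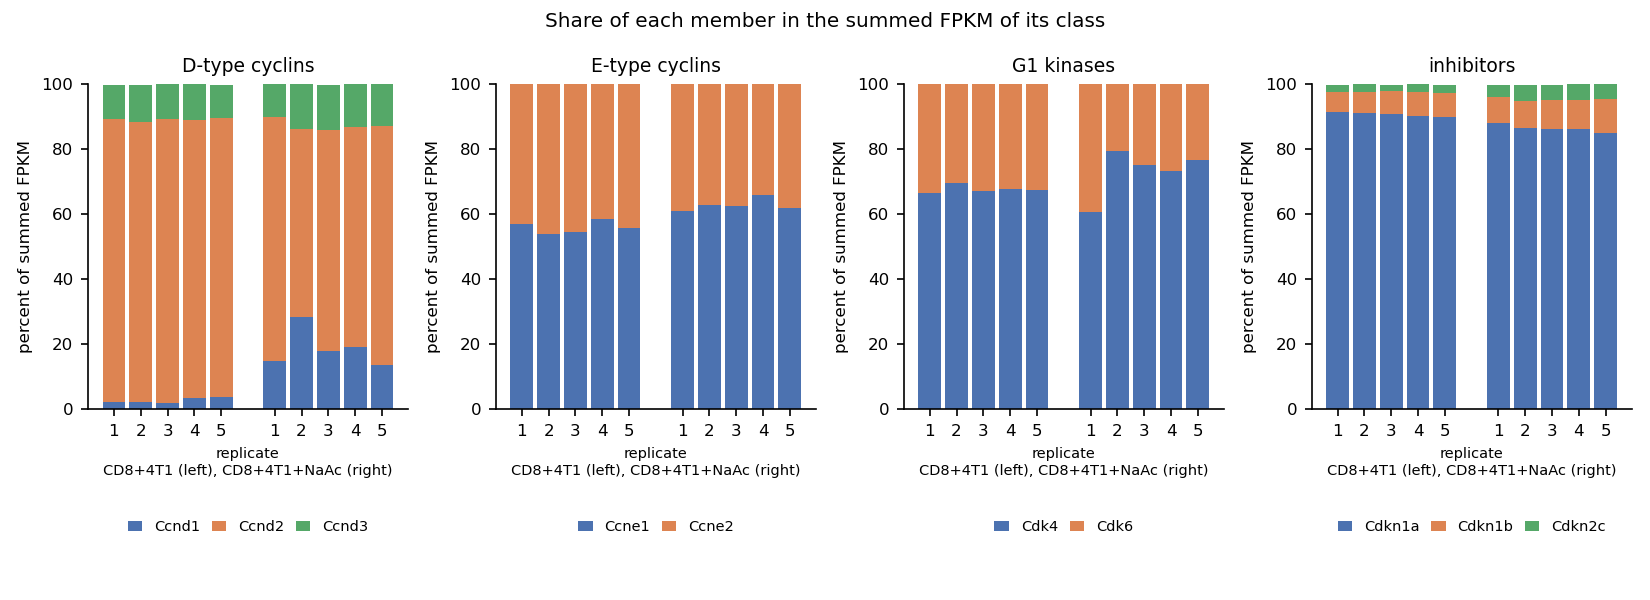
Share of each gene in the summed FPKM of its class (percent, stacked bars, 1 bar per sample, replicates 1 to 5 of CD8+4T1 on the left and of CD8+4T1+NaAc on the right of each panel). The Ccnd1 share is 1.88% to 3.81% without and 13.6% to 28.5% with NaAc, and the Cdkn1a share of the inhibitors is 90.1% to 91.4% and 85.1% to 88.1%.

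Of the E-type cyclins, the partners of Cdk2, only Ccne1 was called. Ccne1 (ENSMUSG00000002068, chromosome 7, 37797409 to 37806959), whose promoter with 4 GC boxes is printed among the sequences, had 13.8, 11.2, 11.2, 11.6 and 12.9 FPKM in CD8+4T1 and 14.1, 17.8, 17.5, 17.9 and 16.6 FPKM in CD8+4T1+NaAc. The groups did not overlap, though replicate 1 of CD8+4T1+NaAc was only just above replicate 1 of CD8+4T1. The means of 12.1 ± 1.16 and 16.8 ± 1.57 FPKM (SD, n = 5) differ by a log2 fold change of 0.46 (SE 0.08, adjusted p = 0.00146), called with any sample left out. Ccne2 (ENSMUSG00000028212, chromosome 4, 11191351 to 11204779) had 10.4, 9.51, 9.30, 8.16 and 10.2 FPKM in CD8+4T1 and 9.04, 10.5, 10.5, 9.20 and 10.2 FPKM in CD8+4T1+NaAc. Its log2 fold change was 0.06 (95% confidence interval -0.11 to 0.23, adjusted p = 0.591), and 0.23 (adjusted p = 0.0448) when samples were rescaled to the same total. Ints8, on the opposite strand over 41.9% of the Ccne2 locus, had a mean of 6.54 FPKM and fell by 0.29 on the log2 scale (adjusted p = 0.00547). Ccne1 made up 54.1% to 58.8% of the summed E-type cyclin FPKM in CD8+4T1 and 61.0% to 66.0% in CD8+4T1+NaAc, without overlap.

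Cdk4 and Cdk6 encode the alternative kinase partners of the D-type cyclins. Cdk6 (ENSMUSG00000040274, chromosome 5, 3391485 to 3581008) had 25.9, 27.7, 29.1, 28.2 and 29.4 FPKM in CD8+4T1 and 25.3, 15.7, 17.3, 18.5 and 16.2 FPKM in CD8+4T1+NaAc. Replicate 1 of CD8+4T1+NaAc lay just below the lowest CD8+4T1 sample and the other 4 were well below it. The means were 28.1 ± 1.38 and 18.6 ± 3.88 FPKM (SD, n = 5), and the log2 fold change was -0.61 (SE 0.11, adjusted p = 0.00189). Without that replicate the CD8+4T1+NaAc mean was 16.9 ± 1.27 FPKM (SD, n = 4). The genes most like Cdk6 over the 10 samples were Zfp609 (r = 0.991), a zinc finger gene, Grap2 (0.987), a T cell adaptor, and Garin3 (0.987).

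Cdk4 (ENSMUSG00000006728, chromosome 10, 126899403 to 126903789) had 51.7, 64.2, 59.3, 59.1 and 60.8 FPKM in CD8+4T1 and 39.1, 61.2, 52.8, 51.5 and 53.3 FPKM in CD8+4T1+NaAc. The ranges overlapped and the lowest value of each group was its replicate 1. The log2 fold change was -0.21 (95% confidence interval -0.44 to 0.03, adjusted p = 0.157), and the adjusted p was 0.0319 with the replicate number as a block. It was -0.11 without CD8+4T1+NaAc replicate 1, -0.03 after rescaling to the same total and -0.02 after scaling to T cell markers, not called in any of these. Tspan31, on the opposite strand over 14.6% of the Cdk4 locus, had a mean of 43.2 FPKM, against 55.3 for Cdk4, and fell by 0.29 on the log2 scale (adjusted p = 0.0148). Summed, Cdk4 and Cdk6 had 77.6 to 92.0 FPKM in CD8+4T1 and 64.4 to 76.9 FPKM in CD8+4T1+NaAc, without overlap as deposited. After rescaling to the same total the ranges were 76.9 to 86.3 and 70.1 to 80.1 and overlapped. The ratio of Cdk4 to Cdk6 was 2.00 to 2.32 in CD8+4T1, 1.55 in replicate 1 of CD8+4T1+NaAc and up to 3.902 in the others of that group.

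Among the inhibitors p21 fell and p18 rose. Cdkn1a (ENSMUSG00000023067, chromosome 17, 29309950 to 29319701), the gene of p21 and the most abundant of the 10, had 240.7, 240.8, 242.9, 233.8 and 244.9 FPKM in CD8+4T1 and 192.1, 151.6, 153.5, 152.4 and 143.0 FPKM in CD8+4T1+NaAc. The CD8+4T1 samples were within a narrow band, and every CD8+4T1+NaAc sample was below it, replicate 1 by the least. The means of 240.6 ± 4.18 and 158.5 ± 19.2 FPKM (SD, n = 5) differ by a log2 fold change of -0.61 (SE 0.07, adjusted p = 0.000147). With all samples kept, the alternatives gave -0.66 to -0.42, each of them called. On the opposite strand, 1700023B13Rik overlaps 10.7% of the locus and had a mean of 10.8 FPKM, against 199.6 for Cdkn1a.

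Cdkn2c (ENSMUSG00000028551, chromosome 4, 109518073 to 109524386), the gene of the Cdk4 and Cdk6 inhibitor p18, had 6.22, 6.21, 5.71, 6.06 and 6.88 FPKM in CD8+4T1 and 8.14, 8.93, 8.44, 8.17 and 7.71 FPKM in CD8+4T1+NaAc. All CD8+4T1+NaAc samples were above all CD8+4T1 samples, on 250 to 452 fragments per sample. The means of 6.21 ± 0.426 and 8.28 ± 0.446 FPKM (SD, n = 5) differ by a log2 fold change of 0.41 (SE 0.06, adjusted p = 0.000552), and this call held in the 12 alternatives that kept all samples and with any sample left out. Cdkn1b (ENSMUSG00000003031, chromosome 6, 134897364 to 134902476), the gene of p27, which is high in resting T cells, had 16.4, 16.8, 18.6, 19.2 and 20.02 FPKM in CD8+4T1 and 17.9, 14.5, 15.8, 16.2 and 17.4 FPKM in CD8+4T1+NaAc. The ranges overlapped, with a log2 fold change of -0.15 (95% confidence interval -0.32 to 0.01, adjusted p = 0.135), and its sign turned under both rescalings (0.02 and 0.04). It was called lower with sample weights (-0.20, adjusted p = 0.0190) and without replicate 1 of both groups (-0.22, adjusted p = 0.0302).

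Summed, the 3 inhibitors had 259.1 to 271.8 FPKM in CD8+4T1 and 168.1 to 218.1 FPKM in CD8+4T1+NaAc, without overlap, and after rescaling to the same total 238.2 to 260.8 and 178.0 to 237.5, still apart but by a small gap. Cdkn1a made up 90.1% to 91.4% of that sum in CD8+4T1 and 85.1% to 88.1% in CD8+4T1+NaAc, and Cdkn2c 2.14% to 2.53% and 3.73% to 5.10%. The ratio of Cdkn1a to Cdkn1b was 12.2 to 14.7 and 8.21 to 10.7. None of the ranges of these shares and this ratio overlapped between the groups.

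**Figure D4:**
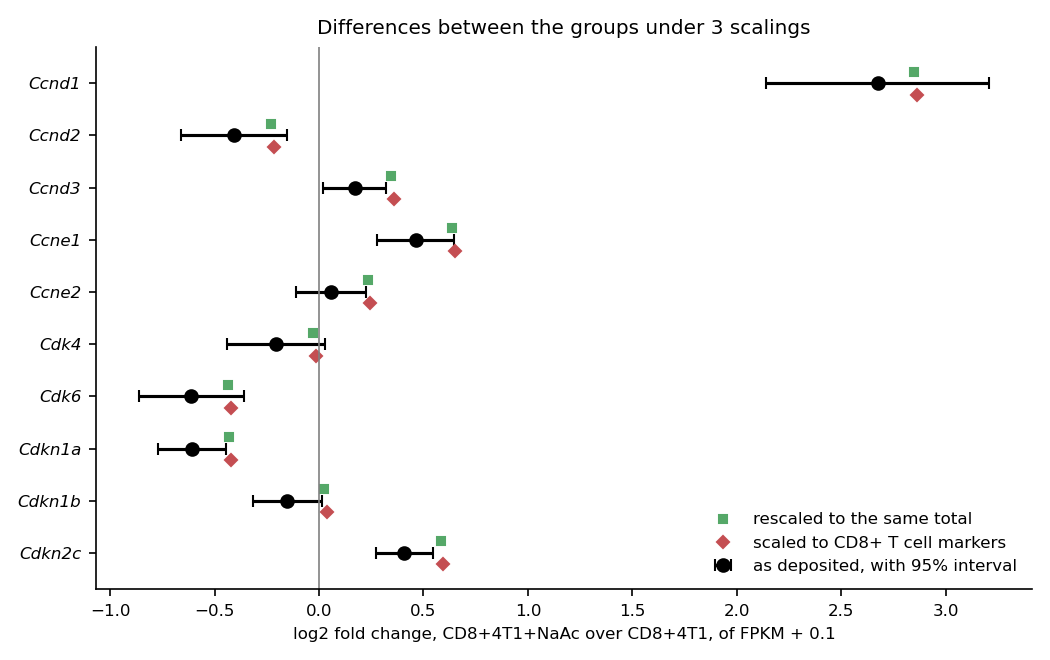
Log2 fold change of FPKM + 0.1, CD8+4T1+NaAc over CD8+4T1, for the 10 genes as deposited (circles, with 95% confidence intervals) and after rescaling to the same total (squares) or to CD8+ T cell markers (diamonds). The rescalings move every gene upward, from -0.15 to 0.02 and 0.04 for Cdkn1b and from -0.41 to -0.23 and -0.22 for Ccnd2, and leave Cdkn1a and Cdk6 below 0.

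The genes around the members were taken from 4 lists. Of 13 genes for pocket proteins and E2F factors, which hold or drive the G1 program, 1 rose (7.69%) and 3 fell (23.1%), shares that compare with 17.6% and 19.0% of all genes, with a median log2 fold change of -0.07. E2f1, an activating E2F, rose from 13.6 ± 0.892 to 17.8 ± 1.305 FPKM (SD, n = 5), and the log2 fold change was 0.39 (SE 0.06, adjusted p = 0.000905), without overlap. E2f3 (-0.24, adjusted p = 0.0286), E2f6 (-0.23, adjusted p = 0.0201) and E2f4 (-0.18, adjusted p = 0.0456) fell. The calls of E2f3 and E2f4 depended on single samples: E2f3 lost it without CD8+4T1 replicate 1 or 2 or CD8+4T1+NaAc replicate 2, 3 or 4 (adjusted p up to 0.0711), and E2f4 without any single CD8+4T1 sample or CD8+4T1+NaAc replicate 3, 4 or 5 (up to 0.107). E2f6 kept its call in each leave-out and lost it with the replicate number as a block (adjusted p = 0.0535). With the rescaling to the same total or to T cell markers no gene of the list fell, and 4 or 5 of 13 rose, where 31.2% and 30.7% of all genes did. The retinoblastoma gene Rb1 had 13.4 ± 0.607 and 13.4 ± 1.44 FPKM (SD, n = 5; log2 fold change -0.01, adjusted p = 0.929).

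Of 15 other kinases, cyclins, inhibitors and turnover factors of the G1/S step, 13 were tested, no gene rose and 6 fell (46.2%, against 19.0% of all genes), with a median of -0.07. The leading falls were the 3 subunits of the Cdk-activating kinase, which phosphorylates Cdk4, Cdk6 and Cdk2 and is also part of the transcription factor TFIIH. Ccnh, its cyclin, went from 13.5 ± 1.40 to 8.84 ± 0.523 FPKM (SD, n = 5; log2 fold change -0.60, adjusted p = 0.000156). Mnat1, its assembly factor, went from 8.14 ± 0.483 to 5.61 ± 0.248 FPKM (-0.53, adjusted p = 8.22e-05), and Cdk7, its kinase, from 9.79 ± 0.643 to 6.98 ± 0.607 FPKM (-0.48, adjusted p = 0.000472). The highest CD8+4T1+NaAc sample of each was below the lowest CD8+4T1 sample. These 3 remained called in all 22 other settings, leave-outs included, with adjusted p of at most 0.00759. Cdc25a, a phosphatase that activates Cdk2, fell by 0.25 (adjusted p = 0.00495), a call lost under both rescalings and with voom. Under the rescaling to the same total 4 of the 13 tested genes rose and 3 fell, and under the T cell marker scaling 2 and 3, where 31.2% and 30.7% of all genes rose and 8.80% and 7.41% fell.

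Of 18 E2F target genes of S phase entry, 1 rose (5.56%) and 3 fell (16.7%), where 17.6% and 19.0% of all genes did. The median of the list was -0.02. Cdt1, the licensing factor, rose from 24.2 ± 1.61 to 35.2 ± 3.53 FPKM (SD, n = 5; log2 fold change 0.54, adjusted p = 0.000336), and Cdc45, a part of the replicative helicase, fell from 30.1 ± 0.665 to 21.4 ± 1.48 FPKM (-0.49, adjusted p = 7.09e-05), both called in all 22 other settings. Ung, a DNA repair glycosylase (-0.24, adjusted p = 0.0123), and Cdc6, a loading factor (-0.16, adjusted p = 0.0446), fell, but the calls of Ung and Cdc6 were lost under both rescalings and with voom. That of Cdc6 was also lost with the replicate number as a block (adjusted p = 0.0508) and held in only 2 of 10 leave-outs, those without CD8+4T1 replicate 1 or CD8+4T1+NaAc replicate 2 (adjusted p up to 0.104 in the others). Mcm2 to Mcm7, the helicase ring, did not pass the test, with log2 fold changes between -0.09 and 0.12. Under both rescalings 7 of the 18 genes rose and 1 fell, where 31.2% and 30.7% of all genes rose and 8.80% and 7.41% fell.

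Of 16 p53 target genes other than Cdkn1a, 15 were tested, 2 rose and 11 fell (73.3%, against 19.0% of all genes), with a median of -0.24. The falls of Bax, an effector of apoptosis (160.1 ± 11.96 to 118 ± 5.95 FPKM, SD, n = 5; -0.44, adjusted p = 0.000353), and Pmaip1, the gene of Noxa (107 ± 7.26 to 80.0 ± 4.51 FPKM; -0.42, adjusted p = 0.000353), held in all 22 other settings. Sesn2, a stress-induced sestrin (-0.42, adjusted p = 0.000753), and Bbc3, the gene of Puma (-0.40, adjusted p = 0.00494), fell, and Bbc3 lost its call under both rescalings and Sesn2 under the T cell marker scaling. Plk3, a stress kinase (0.58, adjusted p = 0.0107), and Sesn1, a further sestrin (0.47, adjusted p = 0.00494), rose. The count of falls depends on the scaling. When samples were rescaled to the same total 3 of the list fell, against 8.80% of all genes. When scaled to T cell markers 2 fell, against 7.41%, and with voom 7, against 2100 of the 15710 genes tested. The list's median in these settings, in that order, was -0.06, -0.05 and -0.14. None of the 13 genes of this list with a promoter in the RefSeq table had the p53 pattern marked in the Cdkn1a sequence.

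**Figure D5:**
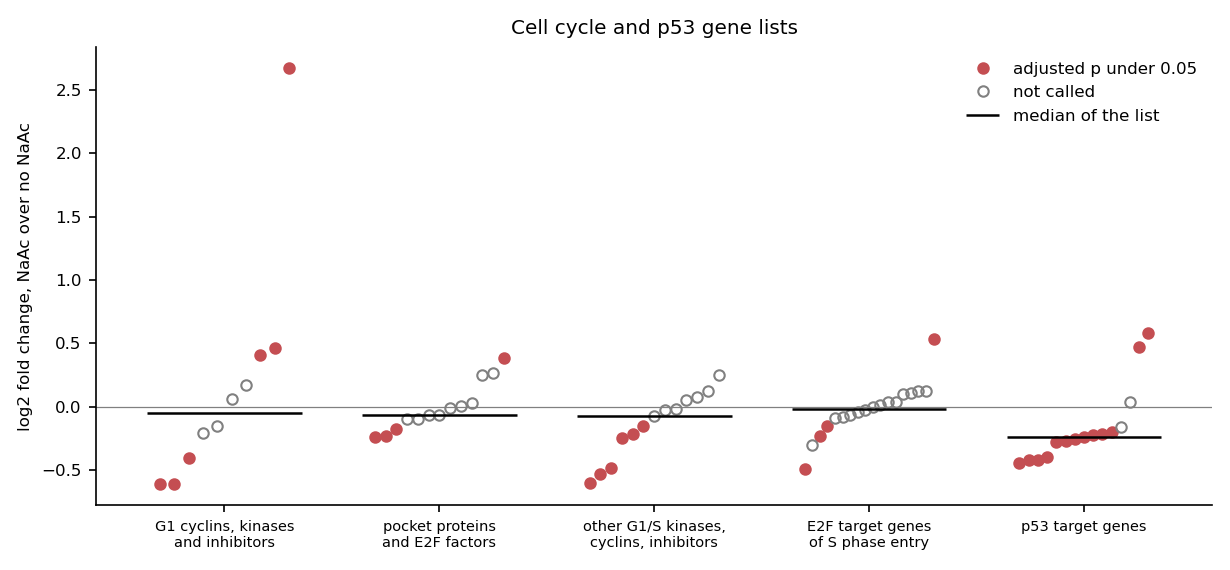
Log2 fold change of each tested gene (points; filled where the limma adjusted p was under 0.05) in the 10 G1 genes and the 4 lists, with the median of each list (lines), from FPKM as deposited. Ccnd1 at 2.68 stands above all other genes plotted, and 11 of 15 p53 target genes are filled below 0.

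The labelled cell type was checked by its markers. The CD8+ T cell list summed to 880.6 to 990.8 FPKM in CD8+4T1 and 760.2 to 903.1 FPKM in CD8+4T1+NaAc, and 1 of its 12 genes rose and 7 fell, where 17.6% and 19.0% of all genes did. After rescaling to the same total 4 rose and 5 fell, where 31.2% and 8.80% of all genes did. After scaling to these markers themselves 4 rose and 3 fell, where 30.7% and 7.41% of all genes did. That scaling centers the markers near 0 by construction. Cd8a had 78.6 ± 2.34 and 76.5 ± 4.37 FPKM (SD, n = 5; log2 fold change -0.04, adjusted p = 0.559), and Cd3d, a chain of the T cell receptor complex, fell from 86.5 ± 10.2 to 59.8 ± 8.22 FPKM (-0.54, adjusted p = 0.00405). As deposited, the 7 falls lay between -0.54 and -0.27, beside -0.61 for Cdkn1a and for Cdk6 and -0.41 for Ccnd2, and the part of a lower T cell signal in these was not tested. Defining markers of B cells (Ms4a1, Pax5), NK cells (Ncr1, Klrb1c) and macrophages or neutrophils (Csf1r, Adgre1, Ly6g) had means of at most 0.227 FPKM in both groups. Other genes of these lists were present: Cd79b had means of 3.58 and 4.64 FPKM in CD8+4T1 and CD8+4T1+NaAc, Cd79a 0.961 and 1.06 FPKM, and Cd14 3.21 and 3.89 FPKM, and these 3 were not called. The 4 NK cell markers summed to at most 0.292 FPKM, none of them tested. The 7 myeloid markers, mostly Cd68, summed to 25.3 to 34.6 FPKM in CD8+4T1 and 26.2 to 30.2 FPKM in CD8+4T1+NaAc. Of these, 3 were tested and 1 rose, Lyz2 (log2 fold change 0.96, adjusted p = 0.0328), with values that overlapped between the groups. Of 4 CD4+ T cell markers 3 were tested and 1 rose, with sums of 13.8 to 15.9 and 12.4 to 18.4 FPKM. Most of these sums was Zbtb7b (means of 13.5 and 12.4 FPKM, not called). The gene that rose was Cd4, from 0.541 ± 0.169 to 1.60 ± 0.187 FPKM (SD, n = 5; log2 fold change 1.44, adjusted p = 0.000317), without overlap. The 6 stromal markers summed to 0.819 to 1.25 and 2.42 to 3.48 FPKM, and 1 of 2 tested rose. Pdgfra rose (means of 0.149 and 1.16 FPKM) and Col1a2 was not called (0.404 and 0.607 FPKM). Both passed the filter only through CD8+4T1+NaAc.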

How the data were processed

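RNA of purified CD8+ T cells was sequenced for the study at Novogene on a NovaSeq instrument from NEBNext Ultra libraries. The deposited values are FPKM per gene and sample, not pooled; the submitters' processing notes name fastp, HISAT2 2.0.5, StringTie 1.3.3b and featureCounts 1.5.0-p3. The genome build, annotation and strand setting are not given in the sources used here. A gene length column (other, not normalized) is deposited beside them. Times that length, and divided by what a single fragment is worth in the sample, FPKM came out whole (tolerance 0.1) for 100% of values, which gives the fragments behind each value and the sample totals behind the scaling, 16306447 to 18853726 per sample; depth limits only the lowest values.

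FPKM are not counts, so log2(FPKM + 0.1) of genes averaging 0.5 FPKM or more was compared with limma 3.58.1 (trend and robust moderation) in R 4.3.3, 5 samples against 5, in place of the count model of the study's methods. The pseudocount understates the fold change of low genes. Single genes were also compared by exact permutation over all 252 assignments (scipy 1.17.1). The limma code was first tested on simulated data. Figures used matplotlib 3.10.9.

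The genes, lists, and markers were chosen with earlier results of these data known. Named genes are the 10 members, at most 4 genes per list and direction with the largest called change, the markers Krt8, Lcn2, Cd8a and Cd3d, and the 3 genes most like the most raised and most lowered member; Rb1, the Mcm genes, genes overlapping a member and other markers were named after their values were seen. A gene of the marker lists, and the list sum that includes it, are not reported here. Alternatives were pseudocounts of 1 and 0.01, no filter, a 5 FPKM minimum on the mean, 3 rescalings, a plain limma fit (no trend, no robust step), sample weights, a replicate block, voom run on fragments, a 0.01 threshold on the adjusted p, and samples left out.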

Additional observations from a re-analysis of the deposited data

Results flagged for a closer look

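Of 20 groups checked (10 genes in 2 groups of 5), 1 held a sample far from the others, and chance alone gives about 1 in 20. For Cdkn1a in CD8+4T1+NaAc, replicate 1 had 192.1 FPKM and the nearest of the other samples 153.5 FPKM, a gap of 0.761 of the group's range on the log2 scale. Without this replicate the group mean was 150.1 ± 4.81 FPKM (SD, n = 4) and stayed below every CD8+4T1 sample. The same replicate had the highest Ccnd2 and Cdk6 and the lowest Cdk4 of its group, and the fewest genes above 0 of all libraries.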

How the results depend on the processing

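Ccnd1, Ccne1, Cdk6, Cdkn1a and Cdkn2c kept their direction and call in 12 alternatives with all samples, in the 10 single leave-outs and without replicate 1 of both groups. The members called higher were 5 after rescaling to the same total, against 3, and 3 to 4 with single samples left out; those called lower were 3 in each leave-out. They were 4 higher and 4 lower with sample weights, 4 and 3 with voom, and 3 and 4 without replicate 1 of both groups. Of the 15710 genes tested, these settings called 3718 higher and 3876 lower, 3990 and 2100, and 3427 and 3554. Cdkn1b turned to 0.0237 after rescaling to the same total and to 0.0359 after scaling to T cell markers. Ccnd2 lost its call under both and at an adjusted p under 0.01.

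The counts of the 4 lists moved most with the scaling. For pocket proteins and E2F factors, 4 rose and 0 fell after rescaling to the same total, 5 and 0 after scaling to T cell markers and 3 and 0 with voom; 3 rose with sample weights and without replicate 1 of both groups, 1 fell without a filter, 0 fell at an adjusted p under 0.01, and with single samples left out 1 to 2 rose and 1 to 3 fell. For the other G1/S genes, 4 rose and 3 fell (total), 2 and 3 (T cell markers) and 2 and 3 (voom); 1 rose without replicate 1 of both groups, and in leave-outs 0 to 1 rose and 4 to 7 fell. For E2F targets, 7 rose and 1 fell under both rescalings and 5 and 1 with voom; 3 rose with sample weights and without replicate 1 of both groups, 1 fell at an adjusted p under 0.01, and in leave-outs 1 to 3 rose and 2 to 3 fell. For p53 targets, 3 (total), 2 (T cell markers), 7 (voom) and 6 (adjusted p under 0.01) fell, with 1 rising at that threshold, and in leave-outs 2 rose and 9 to 11 fell. Of all 15710 genes tested, the single leave-outs called 2369 to 3408 higher and 2524 to 3557 lower. Without a filter 2884 of 32272 genes were called higher and 2603 lower. All genes were not counted at an adjusted p under 0.01, so the list counts at that threshold stand without a background. The rises counted in leave-outs grew without CD8+4T1+NaAc replicate 1 (to 2, 1 and 3 in the first 3 lists), without CD8+4T1 replicate 1 (to 2 in the first and the third) and without CD8+4T1 replicate 4 (to 2 in the third). Rescaling to the same total and to T cell markers raises the CD8+4T1+NaAc values by construction, and median-ratio scaling does not; the cause of the other shifts was not tested.

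Deviations of same-numbered samples correlated at r of -0.03 to 0.07, and 0 of 5 pairs exceeded 0.1. Whether same-numbered samples shared a mouse or culture stays unknown, since the labels and methods do not say and low correlations cannot decide it. With the replicate block 3 members were called higher and 4 lower (Cdk4 added, adjusted p = 0.0319), and 2 genes of the pocket protein list rose. Of the 15710 genes tested, the block called 2551 higher and 2848 lower. E2f6 (adjusted p = 0.0535) and Cdc6 (adjusted p = 0.0508) lost their calls, and 4 of the other G1/S genes fell, against 6.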
